A study of Homo sapiens with 2 samples.

Results

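The cytochrome P450 genes are the 56 protein-coding genes of GENCODE 44 whose symbols are CYP followed by a family number, a subfamily letter and a member number, out of 20007 protein-coding genes on chromosomes 1 to 22, X and Y. They were read in the ATAC-seq peak lists of B2B cells, the BEAS-2B line of human bronchial epithelial cells, which is immortalized and non-cancerous. The cells were labelled wild type and were profiled in 2 replicates with no treatment named. The submitters call these biological replicates and do not say what separated them, so their spread may be partly technical. ATAC-seq marks accessible DNA by the insertion of adapters with the Tn5 transposase, and the authors called peaks with MACS2 on each replicate by itself. No other condition was analysed here, so the values are a description of 1 state with no test between groups. Family 1 to 3 genes, the xenobiotic families, made up 24 of the 56 genes, family 4 with the fatty acid hydroxylases made up 12, and all other families, which act mostly on sterols, steroids, bile acids and vitamins, made up 20.

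Cytochrome P450 enzymes are heme proteins that insert an oxygen atom into their substrates. Those of the endoplasmic reticulum take electrons from the reductase POR, and those of mitochondria take them from the ferredoxin FDX1 and its reductase FDXR. In liver and airway, family 1 to 3 enzymes oxidize drugs and inhaled chemicals, and their transcription is switched on by ligand receptors such as AHR, NR1I2 and NR1I3. Other members carry out single steps of cholesterol, steroid hormone, bile acid, vitamin D and retinoic acid metabolism.

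Most cytochrome P450 promoters had no peak in B2B cells. In both replicates, 9 of 56 genes had a peak no farther than 1 kb from the TSS (transcription start site) of their canonical transcript, which is 16.1% (95% Wilson interval 8.69 to 27.8), whereas the background over all 20007 protein-coding genes was 52.3%. The 9 genes were CYP1B1, CYP2J2, CYP2R1, CYP2U1, CYP4V2, CYP20A1, CYP39A1, CYP46A1 and CYP51A1. Replicate 1 had 10 of the 56 (background 53.2%) and replicate 2 had 9 (background 58%). At least 1 replicate had a peak at 10 promoters (background 59%), since CYP24A1 had one in replicate 1 alone, and 46 promoters had none. The 2 lists gave the same call for 55 of the 56 promoters, and most of this was shared absence, with 9 in both lists and 46 in neither. Over all 20007 genes 10457 had a promoter peak in both lists and 8211 in neither, so most calls were shared there too.

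Examples of promoter sequences with and without a peak are shown first. The printed ones differ in base composition and in the boxes they hold, but they do not stand for all promoters of either kind. The sequences are those of RefSeq (GRCh38.p14, 250 bp before to 50 bp after the RefSeq start), written 5′ to 3′ on the strand of the gene. Capitals mark each GGGCGG (the Sp1 box) and each TATAAA (the TATA box) on either strand. These 5 promoters carried a peak in both replicates and represent vitamin D, oxysterol, cholesterol and fatty acid metabolism and the orphan enzyme CYP20A1:
CYP2R1, chr11:14891622-14891921, minus strand: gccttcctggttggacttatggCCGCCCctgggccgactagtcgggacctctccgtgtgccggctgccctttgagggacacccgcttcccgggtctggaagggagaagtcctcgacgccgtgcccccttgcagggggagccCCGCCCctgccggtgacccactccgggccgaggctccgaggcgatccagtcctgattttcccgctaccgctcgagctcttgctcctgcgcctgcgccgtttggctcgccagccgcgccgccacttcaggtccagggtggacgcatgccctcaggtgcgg
CYP39A1, chr6:46652769-46653068, minus strand: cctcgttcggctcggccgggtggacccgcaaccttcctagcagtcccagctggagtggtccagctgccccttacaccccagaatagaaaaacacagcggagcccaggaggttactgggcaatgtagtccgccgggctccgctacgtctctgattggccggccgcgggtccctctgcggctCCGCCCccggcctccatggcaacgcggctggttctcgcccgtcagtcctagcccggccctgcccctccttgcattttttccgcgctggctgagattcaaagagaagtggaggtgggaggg
CYP51A1, chr7:92134428-92134727, minus strand: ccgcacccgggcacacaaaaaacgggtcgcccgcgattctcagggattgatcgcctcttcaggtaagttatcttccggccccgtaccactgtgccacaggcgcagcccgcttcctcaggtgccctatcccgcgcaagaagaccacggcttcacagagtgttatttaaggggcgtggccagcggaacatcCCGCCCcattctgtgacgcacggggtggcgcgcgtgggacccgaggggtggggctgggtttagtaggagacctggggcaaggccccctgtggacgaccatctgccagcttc
CYP2U1, chr4:107931299-107931598, plus strand: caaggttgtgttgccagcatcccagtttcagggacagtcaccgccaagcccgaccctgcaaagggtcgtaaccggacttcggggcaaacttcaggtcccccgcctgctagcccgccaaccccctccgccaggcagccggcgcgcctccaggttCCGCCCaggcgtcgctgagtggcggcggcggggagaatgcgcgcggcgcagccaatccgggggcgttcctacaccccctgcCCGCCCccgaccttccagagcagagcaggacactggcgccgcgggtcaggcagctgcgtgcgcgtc
CYP20A1, chr2:203238768-203239067, plus strand: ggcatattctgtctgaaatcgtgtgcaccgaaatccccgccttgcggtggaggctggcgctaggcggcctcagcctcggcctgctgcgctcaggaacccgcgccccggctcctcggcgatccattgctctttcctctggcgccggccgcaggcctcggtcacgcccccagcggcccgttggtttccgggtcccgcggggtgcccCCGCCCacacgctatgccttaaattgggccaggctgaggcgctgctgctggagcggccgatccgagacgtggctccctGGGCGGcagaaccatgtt

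The following 3 promoters had no peak in either replicate and belong to textbook enzymes of xenobiotic metabolism, the dioxin-inducible CYP1A1, the ethanol-oxidizing CYP2E1 and the main drug-oxidizing enzyme of liver, CYP3A4:
CYP1A1, chr15:74725479-74725778, minus strand: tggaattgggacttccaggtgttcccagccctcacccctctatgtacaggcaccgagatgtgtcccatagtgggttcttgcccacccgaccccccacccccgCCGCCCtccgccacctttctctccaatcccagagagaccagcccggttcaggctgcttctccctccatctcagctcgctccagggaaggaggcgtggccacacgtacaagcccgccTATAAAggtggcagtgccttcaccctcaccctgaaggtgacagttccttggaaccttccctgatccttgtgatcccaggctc
CYP2E1, chr10:133527113-133527412, plus strand: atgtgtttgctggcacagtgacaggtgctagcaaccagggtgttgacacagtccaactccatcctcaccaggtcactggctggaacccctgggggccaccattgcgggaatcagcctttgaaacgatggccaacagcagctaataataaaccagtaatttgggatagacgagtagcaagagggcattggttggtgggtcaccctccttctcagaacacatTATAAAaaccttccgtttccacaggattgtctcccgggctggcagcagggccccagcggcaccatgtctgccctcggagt
CYP3A4, chr7:99784135-99784434, minus strand: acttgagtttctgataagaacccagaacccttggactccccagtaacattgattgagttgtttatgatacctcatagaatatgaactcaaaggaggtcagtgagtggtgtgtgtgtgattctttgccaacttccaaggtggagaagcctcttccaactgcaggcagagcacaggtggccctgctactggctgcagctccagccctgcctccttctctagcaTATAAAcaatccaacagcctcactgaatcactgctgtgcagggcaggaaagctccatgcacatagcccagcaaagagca

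The printed promoters with a peak held between 23 and 31 CpG dinucleotides and a GC content between 63.7% and 70.7%. Those without a peak held 10 (CYP1A1), 7 (CYP2E1) and 0 (CYP3A4) CpG dinucleotides, with a GC content of 61%, 54.3% and 49.3%. All 3 of these had a TATAAA upstream of the start, and none of the 5 promoters with a peak had one. The 3 do not stand for all promoters without a peak. Those of CYP2S1 and CYP4F22, also without one, held 3 and 4 GGGCGG and no TATAAA. Of the members with CpG counts above the median of all protein-coding genes, 8 lacked a peak in both replicates.

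Over the 39 member promoters matched in the RefSeq table, both strands were searched for 5 motifs. The peak calls refer to GENCODE starts, and the RefSeq start lay within 560 bp of it except at CYP4X1 (62.3 kb) and CYP19A1 (20.1 kb), neither of which had a peak at its GENCODE start. GGGCGG was present in 7 of the 7 matched promoters with a peak in both replicates and in 9 of the other 32, against 58.5% of 15842 protein-coding promoters of the same length. These 15842 take in promoters with and without a peak. For none of the motifs was the share in this window computed among all promoters with a peak. Without CYP4X1 and CYP19A1, a choice made after the data were seen, GGGCGG was in 8 of the other 30 and TATAAA in 14 of them. Over all matched promoters TATAAA was present in 0 of the 7 and in 14 of the other 32, against 9.63% of all promoters. On the coding strand and starting 35 to 25 bp before the start, a placement chosen after the matches were seen, TATAAA was found in 12 of the other 32 promoters and in 3.56% of all promoters. The 12 were CYP1A1, CYP1A2, CYP2A6, CYP2A7, CYP2A13, CYP2C8, CYP2C19, CYP2E1, CYP3A4, CYP3A7, CYP4B1 and CYP26C1. CCAAT was found in 3 of the 7 and in 15 of the other 32, with 36.4% among all promoters. The AP-1 motif TGANTCA was found in 0 of the 7 and in 3 of the other 32 (CYP3A4, CYP3A7 and CYP4F3), with 5.75% among all promoters. The AHR and ARNT core TNGCGTG was found in CYP20A1 alone of the 39, with 6.53% among all promoters. The motifs share no site by their letters, except that TATAAA of both strands overlapped in CYP1A2. A match is a run of letters and not a bound site, and a promoter without one was searched over these 300 bp only.

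Replicate 1 has 28735 peaks and replicate 2 has 36162 on the chromosomes used. Fragments at a summit were worked out from its p and its fold enrichment, and no listed peak had fewer than 16 fragments in replicate 1 or 13 in replicate 2. A promoter without a peak was one where no peak was detectable at this depth, not one shown to be closed. The label of the cells was checked against marker promoters. Of 12 epithelial markers only KRT18, or 1, had an accessible promoter in both lists, and the 11 without a peak included CDH1, EPCAM, KRT5 and TP63. Of 12 mesenchymal markers 8 had one, and the club cell markers SCGB1A1, SCGB3A1 and SCGB3A2 and the hepatocyte markers ALB, APOA1 and TTR had none. The share over all protein-coding promoters was 52.3%, and with 12 or 3 genes a list these counts are a description. SCGB1A1, SCGB3A2, ALB, APOA1, TTR, TP63, ELF3 and COL3A1, all without a peak, had 24 or fewer CpG dinucleotides within 500 bp of the TSS. Over all genes with 30 or fewer the share was 5.91%, so their lack of a peak is near the background. The part of cell state in the calls below was not tested.

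Among the family 1 to 3 genes, 4 of 24 had a promoter peak in both replicates (16.7%, Wilson interval 6.68 to 35.9). In family 4, 1 of 12 had one (8.33%, 1.49 to 35.4), and in the other families 4 of 20 (20%, 8.07 to 41.6). These intervals overlap widely. When the genes were sorted by known substrate, the 15 genes whose enzymes act mainly on xenobiotics had 0 promoter peaks, with a Wilson upper bound of 20.4%. Of these 15 promoters 14 had 30 or fewer CpG dinucleotides within 500 bp of the TSS, and over all genes with so few CpG the share with a peak in both replicates was 5.91%, so the 0 is near the background. CYP1B1 was sorted with the steroid enzymes although it also acts on xenobiotics, and CYP2E1 gains a call when any annotated TSS is used. Fatty acid and eicosanoid enzymes had 3 of 10, sterol, steroid and bile acid enzymes 4 of 14, vitamin enzymes 1 of 7, and enzymes of no assigned substrate 1 of 10. The share over all protein-coding genes was 52.3%. The substrate lists were chosen with earlier results of these data known, and a difference between them was not tested. The 4 open promoters of families 1 to 3 were those of CYP1B1, CYP2J2, CYP2R1 and CYP2U1. These are known for steroid, eicosanoid, vitamin D and fatty acid substrates, and CYP1B1 for xenobiotics too.

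CYP39A1, an oxysterol hydroxylase of the route to bile acids, had the highest fold enrichment in replicate 1 and on average, while CYP2R1 had it in replicate 2, and their means differed by less than the SD of CYP39A1. It lies on the minus strand of chromosome 6 from 46549580 to 46652830 (hg38, ENSG00000146233.8). The peak at its TSS had a fold enrichment of 19.6 in replicate 1 and 16.8 in replicate 2. The mean was 18.2 ± 1.98 (SD, n = 2), and the summits had 112 and 79 fragments. Fold enrichment here is a linear ratio, the summit's fragments over those of the local background, after adding 1 to both. These values were above 97.6% and 93.1% of the promoter peaks of the same list. The promoter is shared with the mitochondrial carrier gene SLC25A27, whose TSS lies 157 bp upstream on the other strand, so the peak cannot be assigned to either gene alone. The summits lay 150 and 129 bp upstream of the CYP39A1 TSS in replicates 1 and 2. That of replicate 1 lay 0.007 kb from the TSS of SLC25A27.

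CYP2R1, the enzyme that makes the circulating form of vitamin D, was nearly as high. Its gene lies on the minus strand of chromosome 11 from 14877440 to 14892231, and its peak had a fold enrichment of 18.0 in replicate 1 and 17.8 in replicate 2 (17.9 ± 0.0782, SD, n = 2). With 171 and 157 fragments it had the most fragments of all member promoters. The peak ran from 14891192 to 14892553 in replicate 2 and covers the whole CYP2R1 sequence printed above, whose RefSeq start lies 560 bp downstream of the GENCODE one. No other protein-coding TSS lay within 1 kb. CYP24A1, which degrades active vitamin D, had a weak peak in replicate 1 at chr20:54174245-54174387. Its fold enrichment was 3.98, from 22 fragments (exact Poisson interval 13.8 to 33.3). Replicate 2 had no peak there, and whether depth plays a part was not tested. CYP27B1, which makes the active hormone, had no promoter peak in either replicate.

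The 3 fatty acid and eicosanoid enzymes with a peak were spread over the order. CYP2U1, a long-chain fatty acid hydroxylase on chromosome 4, had a promoter peak with a fold enrichment of 14.9 and 12.2 in replicates 1 and 2 and 91 and 65 fragments. CYP4V2, a fatty acid hydroxylase known from an inherited crystalline disease of the retina, had 10.4 and 9.34, with 79 and 69 fragments, and was the only family 4 gene with a promoter peak. CYP2J2, which converts arachidonic acid to epoxides, had the lowest fold enrichment of the 9, at 5.72 and 7.25, with 32 and 31 fragments. Its peaks were also the narrowest, with 312 and 228 bp. CYP4F22, a fatty acid hydroxylase of the skin barrier, had no promoter peak although its promoter held 68 CpG dinucleotides.

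Of the sterol and steroid enzymes, CYP46A1, CYP51A1 and CYP1B1 had a promoter peak as well. CYP46A1, the cholesterol hydroxylase of brain, had a fold enrichment of 11.8 and 10.04 with 76 and 64 fragments. CYP51A1, the lanosterol demethylase of cholesterol synthesis, had 11.7 in replicate 1 and 7.48 in replicate 2, with 73 and 48 fragments. This was the widest spread between the replicates among the 9 (9.58 ± 2.97, SD, n = 2), and it placed the peak above 76.3% of promoter peaks in replicate 1 and 35.5% in replicate 2. The start of the antisense RNA CYP51A1-AS1 lies 127 bp upstream of that of CYP51A1, under the same peak. CYP20A1, an enzyme without a settled substrate, had 13.4 and 12.6, with 98 and 91 fragments. The start of an unnamed long noncoding RNA on the other strand lies 277 bp past its TSS, under the same peak. Replicate 2 had a further weaker peak of 4.11 at 739 bp past the TSS.

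CYP1B1, which hydroxylates estradiol and activates polycyclic hydrocarbons outside the liver, was the only family 1 gene with a promoter peak. Its fold enrichment was 7.25 and 7.94, with 41 and 48 fragments. The peak did not cover the canonical TSS, and its summit lay 767 and 889 bp upstream. The other 16 of the 18 promoter peaks, counting the highest of each gene in each replicate, covered the TSS. In the 100 bp to either side of its higher summit, the AHR and ARNT core TNGCGTG was present, as it was in 5.39% of all promoter regions. CYP1A1 and CYP1A2, the other family 1 genes, had no peak of either replicate within 20 kb.

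**Figure D1:**
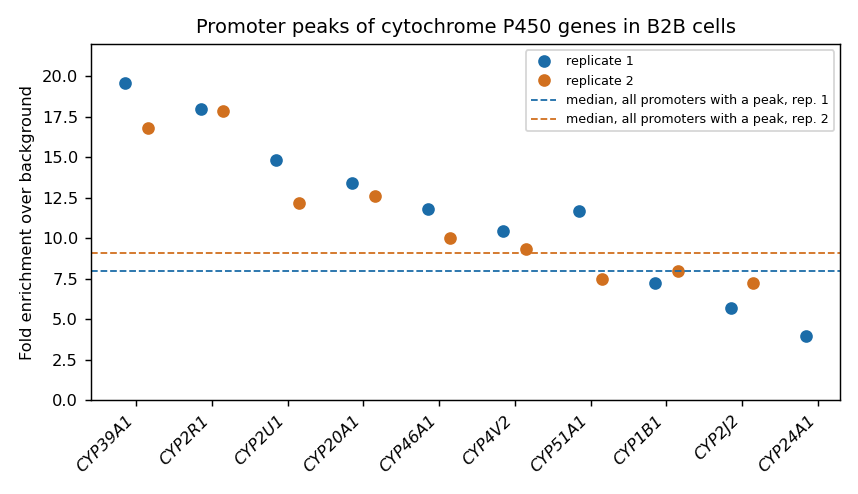
The plot shows the fold enrichment over background (linear scale) of the highest promoter peak of each P450 gene in replicate 1 and replicate 2, with dashed lines at the median over all protein-coding promoters with a peak in the same list. CYP39A1 and CYP2R1 sit at 16.8 or higher in both replicates, and CYP24A1 has a point for replicate 1 only.

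At the open P450 promoters the typical peak was higher than the typical promoter peak of the genome in both lists. The median fold enrichment over the 9 genes was 11.8 in replicate 1 and 10.04 in replicate 2 (10.9 ± 1.23, SD, n = 2), and over all protein-coding genes with a promoter peak it was 7.97 and 9.06 (8.52 ± 0.773, SD, n = 2). The medians over all genes also take in genes with a peak in that list alone. CYP24A1 was the only P450 gene of this kind, and with it the P450 median of replicate 1 was 11.7. The difference was smaller in replicate 2. Of the 9 genes, 6 were above the middle of the promoter peaks in both lists. In 7 of the 9 the fold enrichment was higher in replicate 1 and in 2 it was higher in replicate 2, so that neighbours in the order such as CYP2U1 and CYP20A1, or CYP4V2 and CYP51A1, did not differ by more than the replicates did. For the counts of 6 and 7 genes, the share over all genes with a promoter peak in both lists was not computed. They describe these 9 genes only.

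The P450 promoters were poor in CpG dinucleotides. Within 500 bp of the TSS the members had a median of 16 CpG, with a range of 2 to 113, and all protein-coding genes had a median of 66. The median was 10.5 in families 1 to 3, 10 in family 4 and 66.5 in the other families. Of the 56 genes 34 had 0 to 30 CpG, which is the lowest of 4 groups of nearly equal size into which all protein-coding promoters were divided. They were 17 of the 24 genes of families 1 to 3, 9 of the 12 of family 4 and 8 of the 20 others. In this group 0 of the 34 P450 promoters had a peak in both replicates, and the background was 5.91%. Peaks were rare in this group over all genes too.

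Above that group the P450 promoters with and without a peak were mixed. Of the 8 with 31 to 66 CpG 3 had a peak (background 56%), of the 11 with 67 to 92 CpG 3 had one (background 73.4%), and of the 3 with 93 or more CpG all 3 had one (background 74.4%). Above the median of all genes 6 of 14 had a peak, where the background was 73.9%, and at or below it 3 of 42, where the background was 30.9%. The 8 CpG-rich promoters without a peak in both replicates were those of CYP4F22, CYP7B1, CYP24A1, CYP26A1, CYP26B1, CYP26C1, CYP27A1 and CYP27C1. The 3 CYP26 enzymes degrade retinoic acid, and none of them had a promoter peak, with 83, 72 and 78 CpG. CYP27A1 and CYP7B1 are the hydroxylases of the acidic route to bile acids, with 79 and 82 CpG. Among the other-family genes 3 of 10 with CpG counts above the median had a peak, while in families 1 to 3 both of the 2 such genes did (CYP1B1 and CYP2U1).

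**Figure D2:**
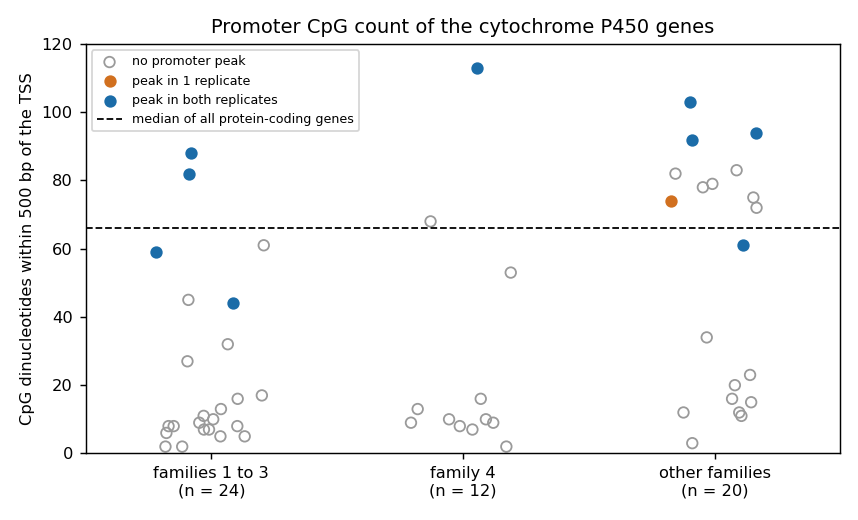
The plot shows the number of CpG dinucleotides within 500 bp of the TSS for the 56 genes in 3 family groups, with filled points for a promoter peak and a dashed line at the median of all protein-coding genes. All promoters with a peak in both replicates lie at 44 CpG or higher, while open circles gather at low counts in each family group and reach 83 in the other families.

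**Figure D3:**
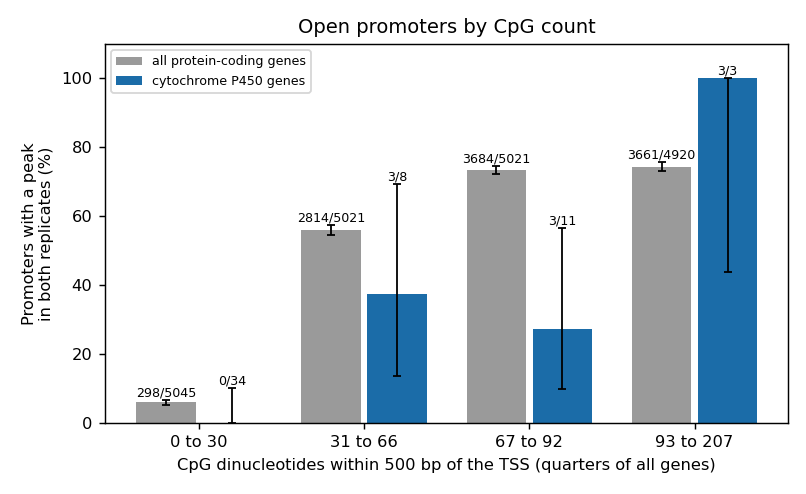
The plot shows the share of promoters with a peak in both replicates (%) in 4 groups by promoter CpG count, for all protein-coding genes and for the P450 genes, with 95% Wilson intervals and the counts above the bars. The P450 genes stand at 0 of 34 in the lowest group and at 3 of 11 in the group from 67 to 92 CpG, where the share of all genes is 73.4%.

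The peaks within 20 kb of each gene were then read. A region that held a peak of both replicates lay within 20 kb of 20 of the 56 genes (35.7%, Wilson interval 24.5 to 48.8), against a background of 75.3%. A peak of replicate 1 lay in this span for 21 genes (background 76.5%) and one of replicate 2 for 23 (background 80.8%). A region of both that lay at no promoter was found for 12 genes (21.4%, background 36.5%). For 32 of the genes neither replicate had any peak in this span, against a background of 18.5%. These were 16 of the 24 genes of families 1 to 3, 10 of the 12 of family 4 and 6 of the 20 others. The genes are not independent, as 33 of the 56 lie in 9 clusters where neighbours can share the same empty stretch. The Wilson interval takes no account of this. The median gene length was 21.9 kb for the members and 27.5 kb for all protein-coding genes. The merged neighbourhoods of the members held 32 regions of both replicates over 3.71 Mb, which is 8.63 per Mb, and those of all protein-coding genes held 12.4 per Mb. Of the 32 regions 9 lay at a member promoter, 6 at the promoter of another gene and 17 at no promoter.

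The large P450 gene clusters were bare. No replicate had a peak within 20 kb of CYP2C8, CYP2C18 or CYP2C19 on chromosome 10, and none lay in the 172 kb from the first base of CYP2C18 to the last of CYP2C19. The 364 kb on chromosome 19 that hold CYP2A6, CYP2A7, CYP2A13, CYP2B6, CYP2F1 and CYP2S1 had 0 peaks in either replicate. CYP2A13 and CYP2F1 are known as airway enzymes that activate inhaled compounds such as tobacco nitrosamines and naphthalene. The 392 kb on chromosome 1 with CYP4A11, CYP4A22, CYP4B1, CYP4X1 and CYP4Z1 also had 0 peaks, and so had the CYP1A pair, the CYP11B pair, the CYP2D pair and the CYP26A1 and CYP26C1 pair. In the 218 kb of the CYP3A cluster on chromosome 7 (CYP3A4, CYP3A5, CYP3A7 and CYP3A43) replicate 2 had 1 peak, in an intron of CYP3A43 with a fold enrichment of 5.21 and 22 fragments, and replicate 1 had none. In the 426 kb of the CYP4F cluster each replicate had 1 peak, more than 20 kb from all of its 6 P450 genes (CYP4F2, CYP4F3, CYP4F8, CYP4F11, CYP4F12 and CYP4F22). For CYP2D6, CYP2D7, CYP4A11, CYP4A22 and CYP21A2 the promoter has a copy elsewhere in the genome that is at least 95% identical over at least 1000 bp, and how the authors treated reads that map to several places is not given in the sources used here.

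CYP4B1 and CYP7A1, like CYP3A43, had a single peak of replicate 2 and none of replicate 1 within 20 kb. The peak at CYP7A1, which starts the main route to bile acids, lay 13.3 kb upstream with a fold enrichment of 4.30. No peak lay within 20 kb of CYP21A2, a steroid hydroxylase of the adrenal gland.

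For 11 genes a region of both replicates lay within 20 kb but neither replicate had a promoter peak. The highest was 13.5 kb past the end of CYP26B1, at chr2:72115337-72116383, with a fold enrichment of 12.8 in replicate 1 and 13.7 in replicate 2 (13.3 ± 0.631, SD, n = 2). The next was at CYP27B1, but all 3 regions there lay at promoters of other genes, TSPAN31, CDK4 and METTL1 with EEF1AKMT3. The regions beside CYP17A1 and CYP19A1 likewise lay at the promoters of BORCS7 and GLDN, and the 4 regions past CYP2S1 lay at the promoter and in the body of the receptor kinase gene AXL. CYP8B1, the sterol hydroxylase that sets the type of bile acid, had a region 5.24 kb upstream with a fold enrichment of 9.01 and 11.1, which lies within ACKR2. At CYP2W1 a region 10.1 kb downstream of the TSS had 7.62 and 10.2. At CYP2E1 a region 6.99 kb upstream of the canonical TSS, beside the first annotated base of the gene, had 9.01 and 8.38. It lies within SCART1. CYP11A1, which starts steroid hormone synthesis, had a region 6.75 kb upstream with 5.54 and 9.97. CYP27A1 had an intronic region 24.3 kb past the TSS with 3.98 and 6.57.

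Only 4 of the regions at no promoter lay in an exon or intron of a member's canonical transcript. These were the intron of CYP27A1, an intron of CYP27C1, exon 5 of CYP2U1 at 7.85 ± 2.04 (fold enrichment, SD, n = 2) and an intron of CYP4V2 at 6.76 ± 2.94 (SD, n = 2). CYP27C1, a desaturase of retinol in skin, had 2 regions at no promoter. The intronic one had a fold enrichment of 5.89 in replicate 1 and 6.80 in replicate 2, and the upstream one had 5.02 and 6.57. CYP46A1 had 2 further regions, 1.35 kb upstream of its TSS at 4.63 ± 0.205 and 10.4 kb past the gene at 7.99 ± 2.48 (SD, n = 2).

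**Figure D4:**
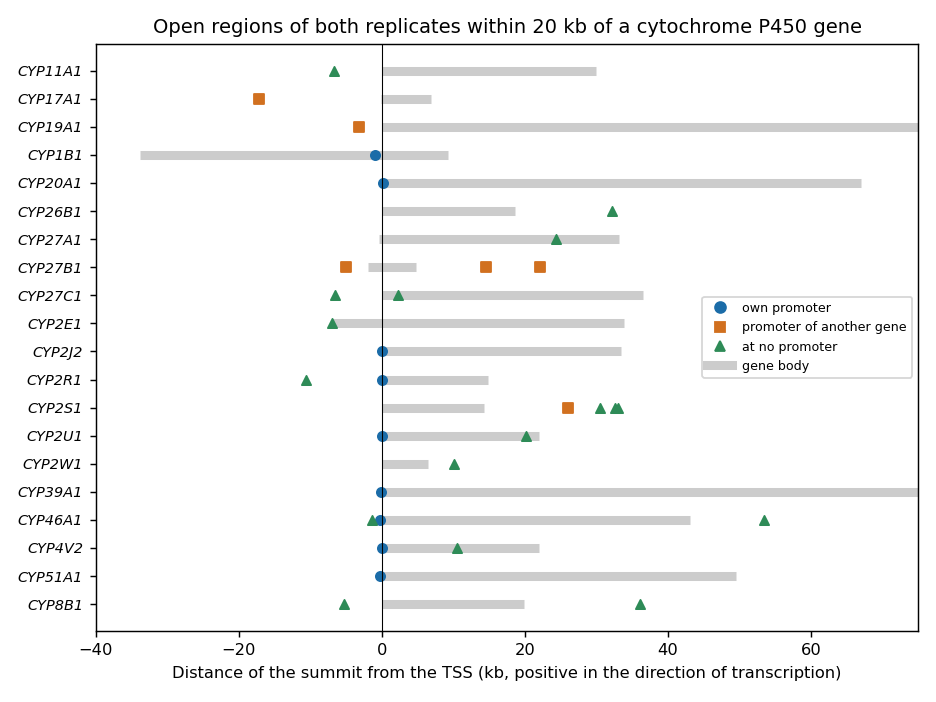
The map shows, for the 20 genes with a region of both replicates within 20 kb, the distance of each summit from the TSS in kb along the direction of transcription, with the gene body as a grey bar that is drawn as far as 75 kb. Circles are peaks at the gene's own promoter, squares are at promoters of other genes and triangles are at no promoter, so that CYP17A1, CYP19A1 and CYP27B1 have squares alone.

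The AP-1 motif TGANTCA was present in 6 of the 17 regions at no promoter when 100 bp on each side of the summit were searched, or 35.3% (Wilson interval 17.3 to 58.7), and the background over the 14831 such regions of the genome was 40.2%. Of the 6 regions 3 lie in AXL and not in a P450 gene. The other 3 were those of CYP27C1 and the one 10.6 kb upstream of CYP2R1. Their reference sequences (hg38, 60 bp to either side of the summit, plus strand, with the motif in capitals) are shown because they are the only motif-bearing regions nearest to a P450 gene:
CYP27C1 intron, chr2:127218048-127218168, plus strand: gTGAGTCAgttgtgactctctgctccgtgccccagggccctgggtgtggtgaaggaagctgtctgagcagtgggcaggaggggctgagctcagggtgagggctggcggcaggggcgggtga
CYP27C1 upstream, chr2:127226838-127226958, plus strand: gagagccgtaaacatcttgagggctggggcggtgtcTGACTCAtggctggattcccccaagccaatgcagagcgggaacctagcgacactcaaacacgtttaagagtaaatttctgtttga
CYP2R1 upstream, chr11:14902767-14902887, plus strand: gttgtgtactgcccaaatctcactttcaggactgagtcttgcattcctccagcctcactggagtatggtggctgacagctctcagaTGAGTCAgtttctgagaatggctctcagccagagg

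In these sequences the centre of the motif lay 56, 21 and 29 bp from the summit. TNGCGTG was found at 0 of the 17 regions, with 3.24% among all regions at no promoter.

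The genes of partner proteins and regulators were read in the same way, and the difference of their shares from that of the P450 genes was not tested. Of 9 genes for electron transfer and partner proteins, 7 had a promoter peak in both replicates. They were POR, CYB5A, CYB5R3, FDX1, FDXR, PGRMC1 and PGRMC2. POR had a fold enrichment of 6.93 in replicate 1 and 7.70 in replicate 2. FDXR had 12.6 and 12.0, and FDX1 had 10.8 and 11.2. CYB5B had a peak in replicate 2 alone, at 5.89, and FDX2 had none. The background was again 52.3%.

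Of 10 regulators, 6 had a promoter peak in both replicates. AHR, the receptor for dioxin and polycyclic hydrocarbons, had a fold enrichment of 6.24 and 12.0 (9.12 ± 4.08, SD, n = 2), its partner ARNT had 4.50 and 8.61, and their repressor AHRR had 6.41 and 7.47. VDR, the vitamin D receptor, had 6.93 and 6.34, RXRA had 5.72 and 3.82, and SREBF2, which drives cholesterol synthesis genes, had 7.45 and 10.4. NR1I2 (PXR) and NR1I3 (CAR), the drug receptors of liver, and the liver factor HNF4A had no promoter peak in either replicate. Their promoters held 13, 12 and 32 CpG dinucleotides, while those of the 6 with a peak held 68 or more. TBXAS1 and PTGIS, the P450 enzymes for thromboxane and prostacyclin that carry other symbols, had no promoter peak either. TBXAS1 gained a call in both replicates when any annotated TSS was used.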

How the data were processed

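ATAC-seq peak lists of 2 replicates of B2B cells were analysed. According to the methods, the authors mapped reads to hg38 with Bowtie2 2.4.4, removed duplicates with their own code and called peaks with MACS2 2.2.7.1, keeping all remaining reads. SAMtools 1.13 served their scaling. The Tn5 shift and the q limit are not given in the sources used here. For every peak the deposited lists hold a fold enrichment, which is a linear ratio, and −log10 values of p and q. The deposited score equals the −log10 q times 10 without its decimals in 100% of peaks and served no test. Analysis used chromosomes 1 to 22 with X and Y, and 0 peaks ran past a chromosome end of the reference.

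Promoter and neighbourhood calls needed an overlap of at least 1 bp with GENCODE 44 canonical transcripts. Peaks of both lists that overlapped were merged into regions, and a merged region takes the summit of its highest peak. Fragments were solved from fold enrichment and −log10 p within 0.01, which worked for 99.9% of peaks in each list. Intervals are 95% Wilson or exact Poisson intervals and cover counting error only. The Wilson intervals treat the genes or regions as independent. Promoter copies were searched with BLAST 2.17.0. Overlap, region, pileup and motif steps were tested on simulated data. Python 3.11.15, numpy 2.4.6, pandas 2.3.3, scipy 1.17.1, pysam 0.24.0 and matplotlib 3.10.9 were used.

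All 56 genes are in the counts, and results of some genes are not reported here by name. Named in full were the genes with a promoter peak, the 5 strongest with only a neighbouring region, well-known genes whatever their values, and the listed partners and regulators. Members and lists were chosen with earlier results of these data known. Other genes with a neighbouring region were named after their values were seen. The alternatives tried were a threshold of 5 on −log10 q, lists shortened to the same number of top peaks, other windows, any annotated TSS, an overlap over 50% of each peak, and each replicate alone.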

Additional observations from a re-analysis of the deposited data

How the results depend on the processing

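Across 13 results, 84 values were computed under alternatives, 69 of them planned and the rest added after the data were seen (for the CpG-rich promoters, the genes without any nearby peak and the fold enrichment with a replicate left out). Counts within 1.5 times the reported count, and other values within the replicate SD, were taken as the same, which held for 79 values. For the fold enrichment with a replicate left out (10.04 and 11.7) this outcome was nearly fixed in advance. The reported mean of 10.9 and its SD of 1.23 come from the medians of the same 2 replicates. The 9 genes with a promoter peak became 10 within 3 kb of the TSS (with CYP27C1), 11 with any annotated TSS (with CYP2E1 and CYP27A1) and 9 to 10 with each replicate left out, where replicate 1 alone adds CYP24A1. With equal numbers of the strongest peaks RXRA lost its promoter call and CYP17A1 and CYP19A1 lost their neighbouring regions, and CYP19A1 lost its region at an overlap of 50% as well. Within 10 kb, CYP17A1, CYP26B1 and CYP2S1 had no region. The other 5 values moved. Within 50 kb of the genes the count moved to 66 regions, where the wider span raises a count by construction. The density there moved to 11.0 per Mb, and that over all genes was not computed at this span. At this span 30 of 56 genes had a region of both replicates, against a background of 84.5%. With replicate 2 left out the density was 9.44 per Mb, which counted as the same, against 14.1 over all protein-coding genes. With replicate 1 left out it moved to 11.3 per Mb, against 17.6. The share of regions at no promoter with the AP-1 motif was 33.3% with replicate 2 left out, which counted as the same. It moved to 24.0% with replicate 1 left out. Within 50 bp of the summit that share moved to 23.5%. The share over all regions was not computed for these alternatives. No paired analysis was possible because only 1 condition was analysed here. Depth limits every call of an absent peak, since the weakest summits listed had 16 and 13 fragments.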
